A study of Rattus norvegicus with 16 samples.

Results

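The transcripts of 4 hormones that fat cells secrete, leptin (Lep), adiponectin (Adipoq), resistin (Retn) and adipsin (Cfd, complement factor D), were read from RNA sequencing of liver and epididymal fat of obese rats. They were taken by gene symbol, 4 of the 22517 symbols listed. The tissues came from 8 male Zucker Diabetic Fatty rats (ZDF/GmiCrl-fa/fa). One set of rats ate Purina 5008 chow with R-α-lipoic acid (LA), a dithiol compound that serves mitochondrial enzymes as a cofactor, and the other was pair-fed (PF) the same chow without it. Feeding lasted 2 weeks, from 9 to 11 weeks of age. Each combination gave 4 biological replicates, named LA fat, PF fat, LA liver and PF liver, or 16 libraries in all. Every rat, the pair-fed ones included, was homozygous for fa, the mutation that impairs the leptin receptor. Lean rats and rats fed without restriction are not analysed here. The dose of LA is not given in the labels. The labels do not say which fat and liver libraries share a rat.

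Adipokines carry information from fat to the rest of the body. Leptin signals fat stores to the hypothalamus through its receptor Lepr, and animals without that receptor overeat while their fat makes large amounts of leptin. Adiponectin, assembled into multimers in the endoplasmic reticulum, raises insulin sensitivity in liver and muscle through Adipor1 and Adipor2. Resistin, which in rodents comes from adipocytes, counters insulin action, and adipsin is the serine protease that cleaves factor B, the step that starts the alternative complement pathway.

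All values are FPKM (fragments counted per unit of transcript length and of library size), which are scaled to transcript length and can therefore be compared between genes. Between 11276 and 11480 genes reached 1 FPKM in the fat libraries and between 9522 and 9738 in the liver libraries. The number of reads is unknown. In bulk tissue, fewer cells of a type and less RNA per cell cannot be told apart. The 20 mature adipocyte markers summed to 44795 to 54118 FPKM in LA fat and 43498 to 50907 FPKM in PF fat, against 1033 to 1466 FPKM in LA liver and 1092 to 1488 FPKM in PF liver. Most of the liver sum came from Pck1, Gpd1 and Dgat2, which hepatocytes also express, at means of 614, 282 and 206 FPKM in LA liver and 609, 360.4 and 311 FPKM in PF liver. Plin, which coats lipid droplets, and Adrb3, the adrenergic receptor of adipocytes, were the only 2 of the 20 markers listed at 0 in all 8 liver libraries. Across the 8 fat libraries, 1 axis of variation within feeds held 49.3% of the variance left after centring on feed, and 1733 of 11501 tested genes followed it at a correlation over 0.9 in size.

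In epididymal fat, adiponectin was the most abundant of the 4 transcripts, and leptin, adipsin and resistin followed. None of the 4 passed the test across all genes between LA and PF fat. Adipsin was the member without overlap: all 4 LA fat libraries had more of it than any PF fat library, by a fold of 1.34 on average. Of all tested genes in fat, 1.32% were likewise higher without overlap. Leptin, adiponectin and resistin overlapped between the feeds. In liver only adipsin was listed above 0, with a ratio of fat to liver means of 258 under LA and 124 under PF. There it was lower on average in LA livers than in PF livers, which did not pass (limma, adjusted p = 0.109).

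Promoters were read to show which motifs of the factors known to drive these genes lie near their starts. The sequences are from RefSeq, build GRCr8, which may not be the build behind the deposited values. All 4 members matched by symbol. Each window runs from 250 bases before the annotated start to 50 after it, and the part that lies before every annotated transcript of the gene is printed for the 3 members with a motif in that part. Capitals mark the motifs found on either strand. These are the palindrome TTGCGCAA, to which factors of the C/EBP family bind, and the GC box GGGCGG, which Sp1 binds and which reads in reverse complement on the printed strand of Retn and Cfd. They also include the box CCAAT, known from many promoters, which reads in reverse complement in Lep. The last is AGGTCA, the half-site that many nuclear receptors bind. The stretches lie at chr4:58626288-58626528 on the plus strand for Lep, chr12:6508524-6508652 on the plus strand for Retn and chr7:10465497-10465746 on the minus strand for Cfd.
Lep: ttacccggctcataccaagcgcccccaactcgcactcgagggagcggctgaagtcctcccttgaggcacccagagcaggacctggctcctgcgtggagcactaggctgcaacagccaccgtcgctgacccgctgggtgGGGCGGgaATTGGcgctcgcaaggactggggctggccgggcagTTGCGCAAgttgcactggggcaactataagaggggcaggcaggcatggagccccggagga
Retn: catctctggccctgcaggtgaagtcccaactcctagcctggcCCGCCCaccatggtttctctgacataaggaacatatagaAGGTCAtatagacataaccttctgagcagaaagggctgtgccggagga
Cfd: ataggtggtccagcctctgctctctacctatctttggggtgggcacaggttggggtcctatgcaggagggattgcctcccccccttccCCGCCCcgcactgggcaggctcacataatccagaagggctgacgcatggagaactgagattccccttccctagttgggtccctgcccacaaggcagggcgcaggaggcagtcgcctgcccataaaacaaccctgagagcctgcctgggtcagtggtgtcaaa

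The C/EBP palindrome, at -69 to -62 from the leptin start, was found in 1 of the 4 windows and in 0.197% of 27457 rat promoters of the same length. The GC box was found in the Lep, Retn and Cfd windows and in 34.9% of all promoters. CCAAT was found in the Lep and Adipoq windows, in Adipoq at -42 to -38 and on the other strand at -69 to -65, and in 37.7% of all promoters. AGGTCA was found in the Retn window, at -169 to -164 and at -7 to -2, and in 15.7% of all promoters. The TATA box TATAAA was found in none of the 4 windows and in 14.3% of all promoters. The E-box CACGTG was found in none of the 4 windows and in 6.65% of all promoters. Both strands were searched, no motif found overlapped another, and a match is a description of these letters only.

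Leptin is the hormone whose receptor is mutated in these rats. In LA fat it had 1163, 1767, 1489.7 and 2076 FPKM in replicates 1 to 4, against 2115, 1532, 1426 and 1368 FPKM in PF fat. The highest library of all 8 was a PF library and the lowest an LA library, and the feeds overlapped over most of their range. Mean levels were 1624 ± 389 FPKM in LA fat and 1610.3 ± 343 FPKM in PF fat (SD, n = 4 each). The log2 fold change of LA over PF on the log2(FPKM + 1) scale was 0.00, with a standard error of 0.20 and a 95% interval of -0.45 to 0.46 (limma, adjusted p = 1.00). The sign of that value is not settled by these libraries, since leaving out single libraries gave values down to -0.13. The two-sided exact permutation p over 70 arrangements was 1. The width of the interval bounds what 4 libraries a group could show: as folds of LA over PF, its bounds are 0.730 and 1.37.

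On the deposited scale, adiponectin varied least of the 4 within each feed. It had 4908, 5315, 5514 and 5231 FPKM in the LA fat replicates, against 5629.8, 5304, 5307 and 5638 FPKM in the PF fat replicates. LA replicates 1 and 4 lay below all PF libraries, and LA replicates 2 and 3 lay inside the PF range. The means were 5242 ± 253 FPKM in LA fat and 5469.7 ± 189 FPKM in PF fat (SD, n = 4 each), a log2 fold change of -0.06 with a standard error of 0.12 and an interval of -0.33 to 0.20 (limma, adjusted p = 1.00). The exact permutation p was 0.20.

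Resistin had 1224, 749.6, 1222 and 789 FPKM in LA fat and 1172, 1049.7, 770.4 and 1158 FPKM in PF fat. Each feed held high libraries, at 1049.7 FPKM or more, and low ones, at 789 FPKM or less, 2 and 2 in LA fat and 3 and 1 in PF fat, so the feeds overlapped across nearly the whole range. The means were 996 ± 263 FPKM in LA fat and 1038 ± 186 FPKM in PF fat (SD, n = 4 each). The log2 fold change was -0.08 with a standard error of 0.21 and an interval of -0.55 to 0.39 (limma, adjusted p = 1.00), and the exact permutation p was 0.971. Without LA replicate 2 or LA replicate 4 the value was 0.05 or 0.02.

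Adipsin had 1865, 1560.2, 1690.5 and 1371 FPKM in LA fat, against 1198, 1245, 1291 and 1099 FPKM in PF fat. The lowest LA library lay above the highest PF library. The means were 1622 ± 209 FPKM in LA fat and 1208 ± 82.2 FPKM in PF fat (SD, n = 4 each). The log2 fold change was 0.42 with a standard error of 0.12 and an interval of 0.14 to 0.70, which is 1.34-fold with bounds of 1.10 and 1.62. It had the 62nd smallest of 11501 p-values (unadjusted p = 0.00763) and did not pass after adjustment (limma, adjusted p = 1.00). The exact permutation p was 0.0286, unadjusted, which is the smallest that 4 libraries against 4 can give. Adipsin was the 1 member of 4 whose feeds did not overlap. Of all tested genes in fat, 1.32% were higher in every LA library than in any PF library, 2.08% did not overlap in either direction, 3.92% had an unadjusted p under 0.05 and 0.0174% passed after adjustment.

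**Figure D1:**
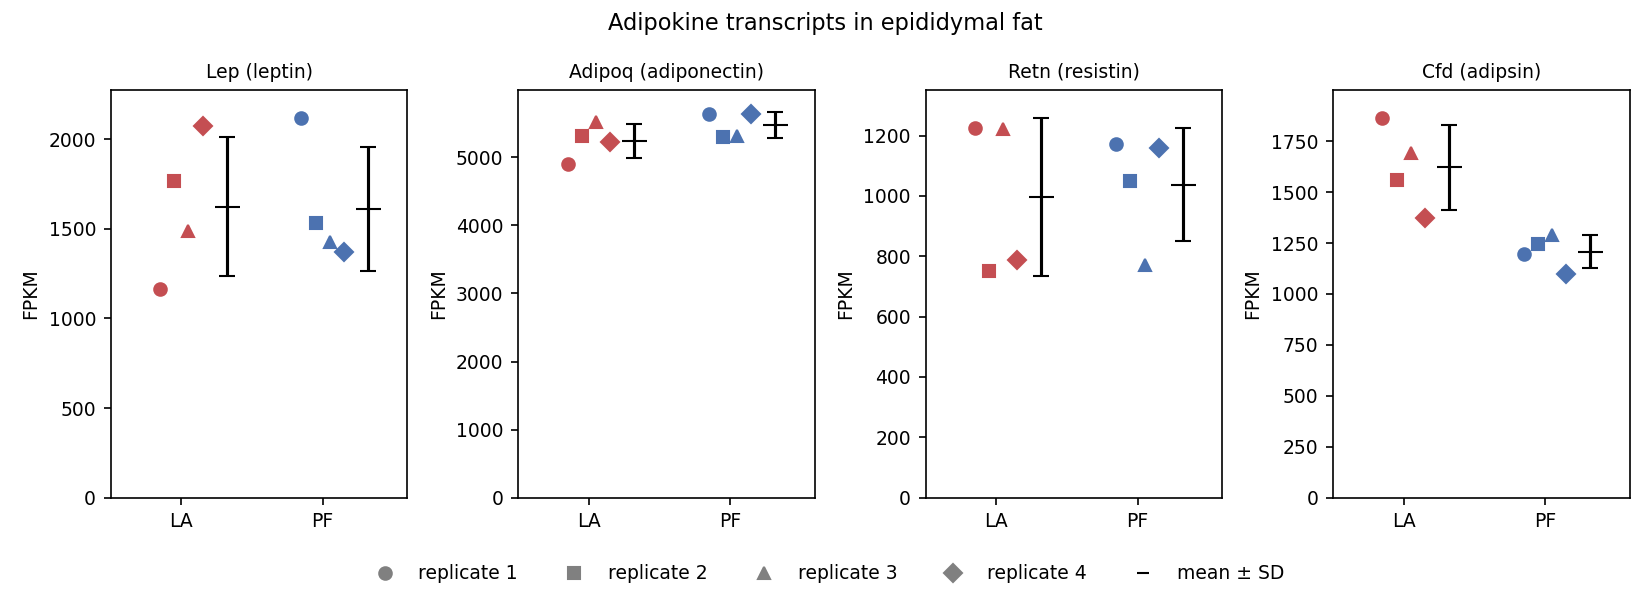
FPKM of each adipokine transcript in the 8 fat libraries, LA left of PF, with a symbol per replicate number and the mean ± SD beside the points. Adipsin is the member whose 4 LA libraries, from 1371 to 1865 FPKM, lie above all 4 PF libraries, from 1099 to 1291 FPKM, while the other 3 overlap.

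The adipsin difference kept its direction in each of the 16 alternative fits, with values from 0.35 to 0.50 on the log2 scale and adjusted p of 0.272 to 1.00 (limma). Most of these fits could not have turned it. Without overlap between the feeds, leaving out a library cannot reverse the direction. Changes of filter, trend, block, within-feed covariate or number of libraries sharing the spread leave the value itself unchanged. The smallest adjusted p came with the first component within feed as a covariate, a fit added after the data were seen. The lowest value came without LA replicate 1, the library with the most adipsin. When FPKM were divided by the library sum and given as TPM, adipsin had 2599 to 3095 TPM in LA fat and 1964 to 2564 TPM in PF fat, again without overlap. The mature adipocyte marker sums overlapped between the feeds, as given above, and Fabp4 and Sncg made up most of them. Of the 20 markers 13 had a lower mean under LA and 7 a higher one, 5 had an unadjusted p under 0.05 and 0 passed (limma). Sncg was higher without overlap, at 11582 ± 870.4 FPKM in LA fat and 9879 ± 426 FPKM in PF fat. Lpl, which takes up lipid from lipoproteins, and Adrb3 were lower without overlap, at 2228 ± 304 and 14.6 ± 4.08 FPKM in LA fat, against 3342 ± 723 and 24.0 ± 3.71 FPKM in PF fat. The shares without overlap over all tested genes in fat were 1.32% higher and 0.756% lower under LA. The 20 macrophage markers summed to 3629.5, 1773, 2414 and 1919.5 FPKM in LA fat, against 1575, 1893, 1311 and 1808 FPKM in PF fat, and 14 of the 15 tested were higher in the mean under LA, with 0 passing the test. LA replicate 1 had both the highest macrophage sum and the highest adipsin level. PF replicate 2 had a higher macrophage sum than LA replicate 2, at 1893 against 1773 FPKM, and less adipsin, at 1245 against 1560.2 FPKM. Emr1 and Marco of the macrophage list were at 0 throughout. The 16 hepatocyte markers summed to 336 to 1317 FPKM in LA fat and 810 to 1496 FPKM in PF fat, with all 15 tested lower in the mean under LA and 0 passing. All 7 tested mesothelial markers were higher in the mean under LA in fat and all 7 tested endothelial markers lower, with 0 passing in either list. The mesothelial sums were 158 to 484 FPKM in LA fat. In PF fat they were 62.2 FPKM in replicate 1 and 271 to 417 FPKM in the others. Endothelial sums were 125 to 172 FPKM in LA fat and 131 to 181 FPKM in PF fat, so both lists overlapped between the feeds. The part of any of these marker lists in the adipsin difference was not tested.

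**Figure D2:**
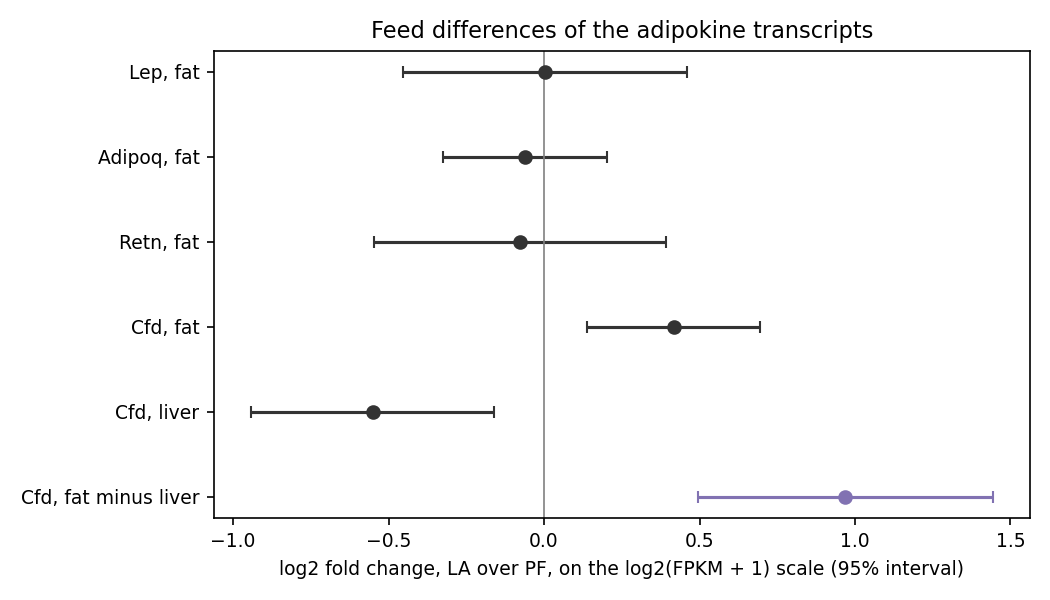
Log2 fold change of LA over PF with its 95% interval for the 4 members in fat, for adipsin in liver, and for the difference between its fat and liver values. The intervals of Lep, Adipoq and Retn include 0, and those of Cfd lie at 0.14 to 0.70 in fat and at -0.94 to -0.16 in liver.

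Ratios between members of the same library do not depend on how that library was scaled. The 3 ratios to adiponectin were tested without adjustment, and those of adipsin and resistin were added after the data were seen. The adipsin to adiponectin ratio was 0.380, 0.294, 0.307 and 0.262 in LA fat, against 0.213, 0.235, 0.243 and 0.195 in PF fat, with no overlap. Its means were 0.311 ± 0.0499 in LA fat and 0.221 ± 0.0218 in PF fat (SD, n = 4 each), a difference of 0.48 on the log2 scale (two-sided exact permutation p = 0.0286). Leaving out any 1 PF library brought that p to 0.0571, with groups of unequal size and still no overlap between the feeds. The leptin to adiponectin ratio, a common index of adipose function, averaged 0.309 ± 0.0706 in LA fat and 0.294 ± 0.0577 in PF fat (exact permutation p = 0.80, n = 4 each). The resistin to adiponectin ratio averaged 0.191 ± 0.0532 in LA fat and 0.189 ± 0.0297 in PF fat (exact permutation p = 0.971, n = 4 each). These 2 ratios overlapped between the feeds.

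The 4 members differed in how much they varied between rats of the same feed. The coefficient of variation was 24.0% in LA fat and 21.3% in PF fat for leptin, and 26.4% in LA fat and 18.0% in PF fat for resistin. It was 12.9% in LA fat and 6.80% in PF fat for adipsin, and 4.82% in LA fat and 3.46% in PF fat for adiponectin. The median over all genes at a mean of at least 1 FPKM was 13.7% in LA fat and 14.4% in PF fat, so leptin and resistin lay above it and adiponectin far below, at percentiles 6.41 and 1.66. Single libraries carried much of 2 of these values: the leptin value in PF fat was 5.79% without PF replicate 1, and the resistin value in PF fat was 5.96% without PF replicate 3. The TPM scale took adiponectin to 9.58% in LA fat and 7.19% in PF fat, still below the median of all genes on the deposited scale, and adipsin to 7.35% in LA fat and 11.6% in PF fat. In LA fat adipsin thus varied less than adiponectin on the TPM scale, the reverse of their order in FPKM.

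In the order of levels, adiponectin ranked between 5 and 8 among all transcripts of each fat library. Leptin ranked between 21 and 65, adipsin between 31 and 59, and resistin between 49 and 88. Adiponectin lay above the other 3 in all 8 libraries without overlap. Leptin and adipsin did not separate: over the 8 fat libraries leptin spanned 1163 to 2115 FPKM and adipsin 1099 to 1865 FPKM. Resistin, at 749.6 to 1224 FPKM, overlapped the low ends of both. Together the 4 transcripts made up 1.5 to 1.8% of the summed FPKM in LA fat and 1.5 to 1.9% in PF fat.

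Leptin and resistin had correlations of opposite sign with the main axis of variation between fat libraries. Their own correlation was r = -0.38 (exact permutation p = 0.340, unadjusted). In PF fat, replicate 1 had both the most leptin, at 2115 FPKM, and the most resistin, at 1172 FPKM. Resistin correlated with the first component within feed at r = 0.86 and leptin at r = -0.69, while adipsin had r = 0.52 and adiponectin r = -0.14, as descriptions over 8 libraries from which that axis was itself computed. LA replicates 2 and 4 and PF replicate 3, the 3 libraries at the low end of the axis, were the 3 with resistin at 789 FPKM or less. Of the 6 pairs of members none passed an exact permutation test of their correlation over the 8 fat libraries. Adiponectin and adipsin had the largest value, with Pearson r = -0.66 (exact permutation p = 0.0705, 0.423 adjusted over the 6 pairs) and Spearman rho = -0.60 (exact permutation p = 0.132, 0.794 adjusted). That value rests on 2 libraries: without LA replicate 1 and PF replicate 4, the 2 farthest from the adiponectin median, r was -0.02. Centred on feed, it was -0.51. The other 5 pairs had r of -0.38 to 0.40, with adjusted p of 0.601 to 0.821 (exact permutation).

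**Figure D3:**
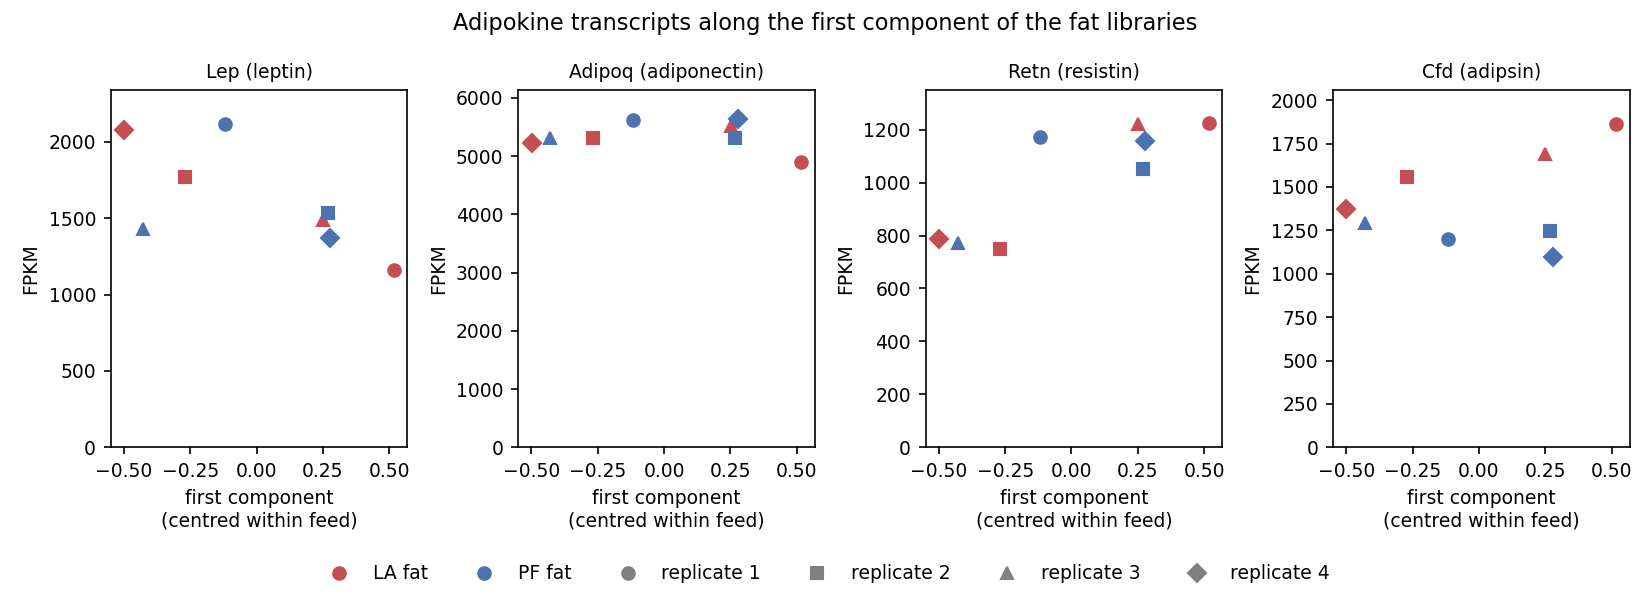
FPKM of each member in the 8 fat libraries against the first component of log2 values centred within feed, with LA in red, PF in blue and a symbol per replicate number. The 3 libraries at the left end are the 3 with resistin at 789 FPKM or less, and the adiponectin points lie nearly level.

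The genes most like each member over the 8 fat libraries were taken by Pearson's r among 6716 genes with a mean of at least 5 FPKM in both feeds. For leptin they were Kif1c, a kinesin motor, at r = 0.96, Slc35e1 at 0.94 and Mgll, the lipase that completes triglyceride breakdown, at 0.93. For adiponectin they included Coq10a, a coenzyme Q binding protein, at 0.94 and Cav1, the main coat protein of adipocyte caveolae, at 0.94. For resistin they were Ict1 at 0.99, the cell cycle inhibitor Cdkn2c at 0.98 and Bxdc2 at 0.98, and for adipsin Pygo2 at 0.97, Nudt16 at 0.96 and Slfn8 at 0.96. A total of 186 genes exceeded 0.9 with resistin, against 7 with leptin, 9 with adiponectin and 13 with adipsin. The libraries share the axis described above, and these likenesses carry no test.

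In liver, leptin, adiponectin and resistin were listed at exactly 0 in all 4 LA and all 4 PF libraries. A listed 0 can be a failed estimate in these files: Alb, the main secreted protein of hepatocytes, and Tf, the iron carrier of plasma, were at 0 in all 8 liver libraries, while Alb had 51.2 to 581 FPKM in the fat libraries. No fold and no test between tissues is therefore given for these 3 members. Plin and Adrb3 were the only 2 of the 20 adipocyte markers also listed at 0 in all 8 liver libraries, and their zeros carry the same doubt. Other markers had values there: Cidec and Cidea averaged 57.9 and 2.92 FPKM in LA liver, against 51.0 and 1.67 FPKM in PF liver.

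Adipsin was measured in both tissues. In liver it had 4.79, 6.17, 5.95 and 8.26 FPKM under LA, against 8.52, 13.9, 8.71 and 7.97 FPKM under PF. The ranges met at one place only, where LA replicate 4 lay above PF replicate 4. The means were 6.30 ± 1.45 FPKM in LA liver and 9.77 ± 2.75 FPKM in PF liver (SD, n = 4 each), a log2 fold change of -0.55 with a standard error of 0.18 and an interval of -0.94 to -0.16 (limma, unadjusted p = 0.0102, adjusted p = 0.109). The exact permutation p was 0.0571. It did not pass, in a tissue where 4.48% of the 9710 tested genes did and 10.5% were lower with an unadjusted p under 0.05. Without PF replicate 2, the highest library, the log2 fold change was -0.39.

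Adipsin was higher in fat than in liver under both feeds. The means of 1622 FPKM in LA fat and 6.30 FPKM in LA liver differed by 258-fold, with single libraries giving 166- to 389-fold, and those of 1208 FPKM in PF fat and 9.77 FPKM in PF liver by 124-fold, with single libraries giving 79.2- to 162-fold. Fitted, the log2 fold change of fat over liver was 7.81 under LA and 6.84 under PF (limma, adjusted p = 6.69e-17 and 2.95e-16). Of all 12079 genes tested, 35.6% were called higher in fat under LA and 35.8% under PF. The difference between the feed effects, fat minus liver, was 0.97 on the log2 scale with a standard error of 0.22 and an interval of 0.49 to 1.44 (limma, unadjusted p = 0.000509, adjusted p = 0.0788). It did not pass, and 0.381% of genes did. Without LA liver replicate 4 it was 1.09 and passed (limma, adjusted p = 0.0480), and in the other 21 alternative fits it did not. Fat and liver came from the same rats, and the fit treats their libraries as independent.

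**Figure D4:**
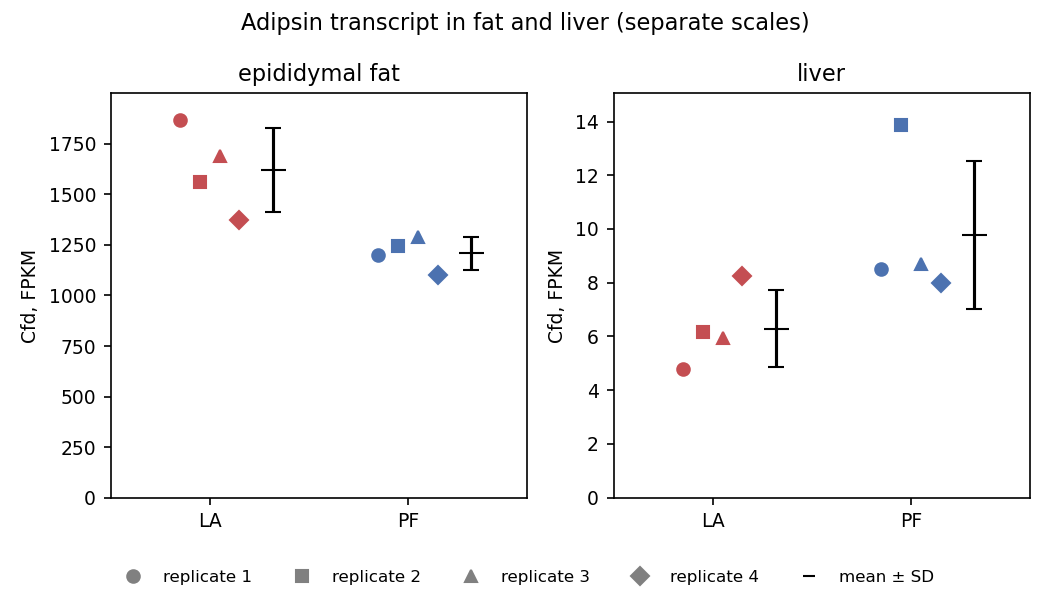
Adipsin FPKM in fat (left) and liver (right, own scale), LA left of PF, with a symbol per replicate number and the mean ± SD beside the points. In fat all LA libraries lie above all PF libraries, and in liver the LA libraries, from 4.79 to 8.26 FPKM, lie mostly below the PF libraries, from 7.97 to 13.9 FPKM.

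The library kit does not mark strand, so reads of genes that overlap on opposite strands cannot be told apart. Of the genes next to Cfd, the neutrophil proteases Elane and Prtn3 were at 0.0934 FPKM or less in every library, and Med16, a subunit of the Mediator complex, had 14.2 to 18.7 FPKM in LA fat, 13.3 to 18.5 FPKM in PF fat, 7.15 to 7.81 FPKM in LA liver and 7.61 to 9.09 FPKM in PF liver.

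Adipsin acts on the alternative complement pathway, and the other genes of that pathway were read beside it. In fat 0 of 11 tested genes passed, with a median log2 fold change of 0.02 beside 0.01 over all genes. C3ar1, the receptor of the C3a peptide, had 5.19 ± 0.179 FPKM in LA fat and 3.92 ± 0.301 FPKM in PF fat without overlap (limma, unadjusted p = 0.00376, adjusted p = 1.00, n = 4 each). C6, a component of the membrane attack complex, had 234.5, 239.6, 245.7 and 241 FPKM in LA fat, against 315.7, 316.4, 253.9 and 276.8 FPKM in PF fat, also without overlap (limma, adjusted p = 1.00). Over all tested genes in fat, 1.32% were higher and 0.756% lower under LA without overlap. Cd55, which protects cells from complement, averaged 43.2 ± 4.01 FPKM in LA fat and 35.9 ± 4.79 FPKM in PF fat, with overlap. C3, the protein at the centre of the pathway, was listed at 0 in all 16 libraries and could not be compared. Cfb, the substrate of adipsin, averaged 126 ± 17.8 FPKM in LA fat and 123 ± 57.1 FPKM in PF fat.

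In liver 4 of 9 tested complement genes fell under LA, 5 did not pass, and the median was -0.25 beside 0.00 over all genes. Of the 4, C6 alone passed in each of the 16 alternative fits. Of all tested liver genes 2.21% passed as lower. C6 fell to 45.8 ± 5.18 FPKM in LA liver, against 87.1 ± 10.9 FPKM in PF liver, a log2 fold change of -0.91 with a standard error of 0.11 (limma, adjusted p = 0.00171). Cfi, the protease that inactivates C3b, had 293 ± 27.7 FPKM in LA liver and 411 ± 44.0 FPKM in PF liver (limma, adjusted p = 0.0210). C9, which forms the membrane pore, had 435 ± 32.7 FPKM in LA liver and 581 ± 53.5 FPKM in PF liver (limma, adjusted p = 0.0314). Cfb had 479 ± 39.5 FPKM in LA liver and 611 ± 28.6 FPKM in PF liver (limma, adjusted p = 0.0421).

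These 3 calls were less steady than that of C6. Cfi did not pass without LA replicate 2 or 3 or PF replicate 2, C9 without LA replicate 2 or 4 or PF replicate 1, 2 or 4, and Cfb without any 1 library other than LA replicate 1, at adjusted p of up to 0.0662, 0.0923 and 0.109 with 1 library left out (limma). With all 16 libraries in one model none of the 3 passed, at the same fold changes and adjusted p of 0.418 for Cfi, 0.621 for C9 and 0.685 for Cfb (limma). That model shares 1 spread between fat and liver, so it does not measure how steady the liver values are. The standard errors of Cfi, C9 and Cfb were 0.32, 0.38 and 0.35 in fat, against 0.099, 0.093 and 0.085 in liver. Those of C6 were 0.097 in fat and 0.11 in liver. On the TPM scale Cfi passed, with a log2 fold change of -0.35 (limma, adjusted p = 0.0344), while C9 at -0.28 and Cfb at -0.22 did not (limma, adjusted p = 0.0664 and 0.0908). Hepatocyte markers moved with them: their sum was 43495 to 53921 FPKM in LA liver and 55799 to 68643 FPKM in PF liver, 12 of 14 tested were lower in the mean, 2 fell, and Alb and Tf were at 0. Macrophage markers moved the other way: their sum was 312 to 435 FPKM in LA liver and 221 to 283 FPKM in PF liver, 13 of 14 tested were higher in the mean, and Mpeg1, Clec4f and Cd163 rose (limma, adjusted p = 0.0132, 0.0166 and 0.0191). Of all 9710 tested liver genes, 220 were called higher and 215 lower. Emr1 and Marco were at 0 in both feeds. The part of either marker list in the complement values was not tested.

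**Figure D5:**
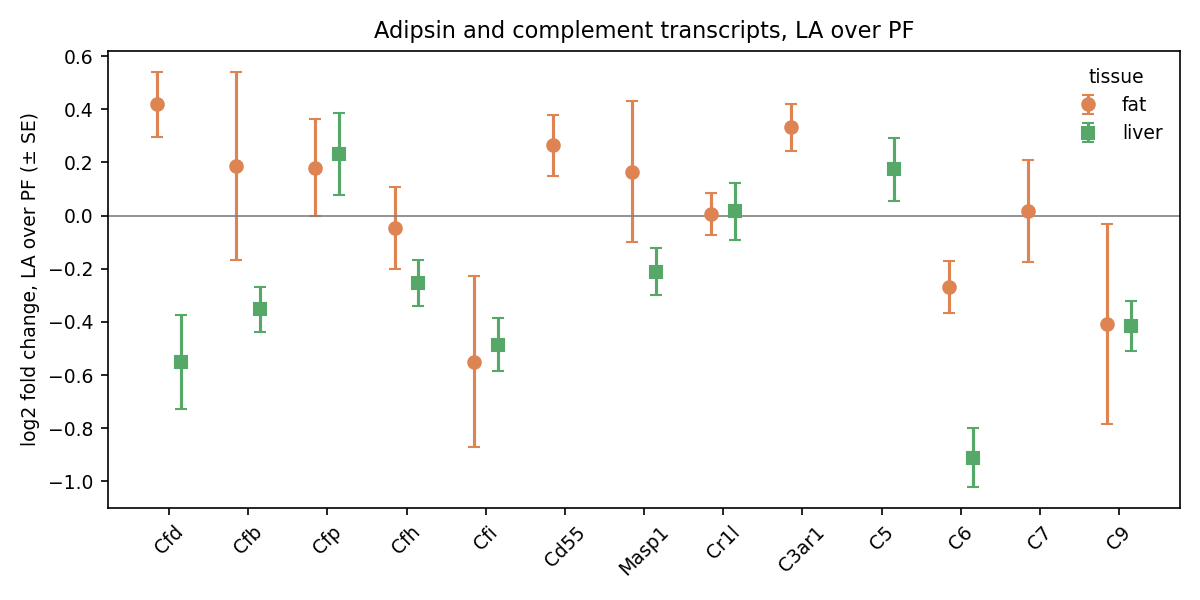
Log2 fold change of LA over PF (± SE) for adipsin and 12 genes of the complement list in fat (circles) and liver (squares), where tested. Adipsin lies above 0 in fat and below 0 in liver, and C6 in liver has the lowest value, at -0.91.

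Among the 6 receptors and binding proteins of the adipokines, 0 of the 5 tested in fat and 0 of the 4 tested in liver passed. Cdh13 and Tlr4 were under the level tested in liver. Lepr, the mutated leptin receptor, averaged 0.833 ± 0.265 FPKM in LA fat and 0.834 ± 0.302 FPKM in PF fat, under the level tested, and 1.37 FPKM in LA liver and 1.06 FPKM in PF liver. Adipor1 averaged 82.0 ± 3.24 FPKM in LA fat and 85.4 ± 5.72 FPKM in PF fat, and 43.5 FPKM in LA liver and 46.6 FPKM in PF liver. Adipor2, the receptor form that dominates in mouse liver, averaged 102 ± 16.3 FPKM in LA fat and 119 ± 25.6 FPKM in PF fat, and 59.8 FPKM in LA liver and 72.9 FPKM in PF liver (limma in liver, adjusted p = 0.254). Cdh13, which binds large adiponectin multimers, averaged 5.58 ± 1.89 FPKM in LA fat and 5.74 ± 1.11 FPKM in PF fat and was near 0 in liver. Cap1, a resistin-binding protein in human cells, averaged 101 ± 4.60 FPKM in LA fat and 96.8 ± 6.42 FPKM in PF fat, and 30.3 FPKM in LA liver and 26.7 FPKM in PF liver (limma in liver, adjusted p = 0.185). Tlr4 averaged 5.50 ± 0.928 FPKM in LA fat and 4.88 ± 0.696 FPKM in PF fat.

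Downstream of the receptors, 0 of 14 genes of leptin receptor signalling and 0 of 18 genes of adiponectin signalling and assembly passed in fat, with median log2 fold changes of 0.10 and 0.06. In liver 0 of 14 and 0 of 16 passed. Socs3, the feedback inhibitor that leptin induces, averaged 7.95 ± 7.62 FPKM in LA fat and 4.01 ± 2.48 FPKM in PF fat, with overlap. Stat5b, a signal transducer of cytokine receptors, averaged 7.33 ± 1.24 FPKM in LA fat and 6.12 ± 1.34 FPKM in PF fat. Ero1l and Hspa5, which fold and assemble secreted proteins such as adiponectin in the endoplasmic reticulum, averaged 8.86 ± 2.02 and 439 ± 136 FPKM in LA fat, against 7.69 ± 0.828 and 365 ± 40.1 FPKM in PF fat.

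Of the transcription factors known to drive adipokine genes, 0 of 18 passed in fat and 0 of 14 in liver. Cebpa and Cebpb, which bind C/EBP sites such as the palindrome in the leptin promoter, averaged 75.7 ± 7.70 and 20.7 ± 3.4 FPKM in LA fat, against 67.8 ± 3.75 and 16.9 ± 2.35 FPKM in PF fat. Hif1a, an oxygen-regulated transcription factor, averaged 21.6 ± 0.729 FPKM in LA fat and 24.1 ± 1.69 FPKM in PF fat, and was the member of this list whose feeds did not overlap (limma, adjusted p = 1.00), where 0.756% of all tested genes were lower in every LA fat library. Srebf1, which insulin induces, averaged 52.8 ± 7.52 FPKM in LA fat and 59.9 ± 7.19 FPKM in PF fat.

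The structural relatives of the members did not pass in fat either. Of the 17 C1q/TNF relatives of adiponectin listed, 11 were tested. The 3 most abundant were the C1q chains C1qa, C1qc and C1qb, which macrophages make, at 391 ± 105, 363 ± 69.8 and 347 ± 84.3 FPKM in LA fat, against 346 ± 81.5, 309 ± 72.5 and 300.2 ± 71.8 FPKM in PF fat. Of the resistin-like genes, Retnla and Retnlb were listed at 0 in all 16 libraries. Retnlg had 3.6, 4.10, 2.92 and 1.57 FPKM in LA fat, against 4.00, 18.3, 7.66 and 4.99 FPKM in PF fat, where PF replicate 2 stood above the rest and the feeds overlapped (limma, unadjusted p = 0.0192, adjusted p = 1.00).

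Among 30 other secreted adipokines tested in fat 0 passed, with a median log2 fold change of 0.10. Apln (apelin, which adipocytes secrete in response to insulin) had 4.23, 3.54, 3.52 and 2.17 FPKM in LA fat, against 6.67, 8.40, 7.46 and 4.74 FPKM in PF fat. All LA libraries lay below all PF libraries, at a log2 fold change of -0.84 (limma, unadjusted p = 0.00137, adjusted p = 0.947). Apln was the 1 gene of the 30 without overlap, where 0.756% of all tested genes in fat were likewise lower. Serpina12 (vaspin) averaged 27.4 ± 13.2 FPKM in LA fat and 71.3 ± 34.4 FPKM in PF fat, and Nampt (visfatin) 59.1 ± 2.81 FPKM in LA fat and 71.5 ± 10.3 FPKM in PF fat, both with overlap. Wisp2, secreted by adipose precursor cells, averaged 11.4 ± 1.75 FPKM in LA fat and 8.99 ± 1.19 FPKM in PF fat.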

How the data were processed

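RNA was taken from liver and epididymal fat with TruSeq V2 sequencing libraries, per the labels' protocols. CASAVA 1.8.2, TopHat and Cuffdiff were used, per the submitters' processing notes. Each file holds 1 FPKM value per gene symbol, deposited by the authors, per the file headers. The genome build and annotation behind them were not given in the sources used here. Without counts, log2(FPKM + 1) was tested with limma 3.58.1 (R 4.3.3; intensity trend on; Benjamini-Hochberg) wherever 4 or more libraries of a fit reached 1 FPKM. Fold changes on this scale understate those of low genes. The threshold was an adjusted p under 0.05, to which tissue contrasts added an absolute log2 fold change over 1. Feeds were compared within each tissue, and tissues and the difference between feed effects over all 16 libraries. Adjusted p-values cover all genes tested and measure the spread between rats' libraries.

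Exact permutation tests were two-sided over the 70 arrangements of 4 against 4 libraries. The members and lists were chosen with earlier results of these data known. Of 276 distinct listed genes, 247 matched by symbol, 9 by an older symbol and 20 did not match. The genes named were the members, the receptors, list members that passed between feeds and up to 4 of each list with the smallest p in fat. Cfb and C1qa are given beside these as the substrate of adipsin and an abundant relative of adiponectin. The fit was tested on simulated data. Figures were drawn with matplotlib 3.10.9. Part of what the rule on likeness names is not reported here.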

Additional observations from a re-analysis of the deposited data

Results flagged for a closer look

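Single libraries far from the other 3 of their group were sought among the members, their ratios, the receptors and the named list genes. Of 124 groups 9 held such a library, and chance flags about 1 in 20 groups, or 6.2 of 124.

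Adipsin in PF liver had 13.9 FPKM in replicate 2, against 7.97 to 8.71 FPKM in the other 3. The resistin to adiponectin ratio in PF fat was 0.145 in replicate 3, against 0.198 to 0.208 in the others. C1qc had 467 FPKM in LA fat replicate 1, against 317 to 334 FPKM in the others, and 418 FPKM in PF fat replicate 2, against 270.2 to 275 FPKM. C1qb had 407 FPKM in the same PF fat replicate 2, against 258 to 274 FPKM. Leprot had 53.1 FPKM in LA fat replicate 1, against 47.9 to 48.6 FPKM. Socs3 had 7.70 FPKM in PF fat replicate 4, against 2.28 to 3.12 FPKM. In liver, Srebf1 had 186 FPKM in LA replicate 2, against 82.1 to 98.5 FPKM, and Nampt had 48.1 FPKM in LA replicate 1, against 39.2 to 40.3 FPKM.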

How the results depend on the processing

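No member passed in fat under any alternative, and 603 of 673 recomputed values were counted as unchanged. For tests this means the same direction and side of the threshold. For gene counts it means a bounded change, and for coefficients of variation a shift under the error estimated by leaving libraries out. The total includes the tissue comparisons of all members, unchanged in each of 22 alternatives, also where liver values were listed at 0. Those comparisons could hardly change, and several settings leave an estimate as it is. The total therefore overstates how steady the other results are. Genes called in fat numbered 2, and 1 with a pseudocount of 0.1 FPKM, 1 with the replicate block, 7 with all 16 libraries in one model and 0 to 2 with a library left out. In liver they numbered 435, and 208 to 404 with a library left out (208 without LA replicate 2, 267 without PF replicate 1). Leptin in fat was -0.019 under median centring, -0.023 on the TPM scale and -0.13 to 0.15 with a library left out. With a library left out, resistin was -0.21 to 0.046, the adipsin difference between tissues 0.80 to 1.09, leptin to adiponectin -0.065 to 0.19, resistin to adiponectin -0.16 to 0.11 and adipsin to adiponectin 0.38 to 0.56. The last was 0.48 with the replicate block (exact sign-flip p = 0.125, the smallest that 4 pairs allow). On the TPM scale the coefficients of variation in fat were 9.58% (LA) and 7.19% (PF) for adiponectin, 19.9% (LA) for resistin, and 7.35% (LA) and 11.6% (PF) for adipsin. In PF fat with a library left out they were 5.79 to 25.4% for leptin and 5.96 to 22.1% for resistin. The TPM scale turned the correlations of adiponectin with resistin (-0.31) and of resistin with adipsin (-0.27). With a library left out, leptin with adiponectin ranged from -0.13 to 0.63, leptin with adipsin from -0.61 to 0.076 and resistin with adipsin from -0.22 to 0.29. On the TPM scale the median liver gene was at 0.12 and the liver calls were 521 higher and 115 lower, against 220 and 215. Median centring gave 2274 genes higher and 2086 lower in fat than in liver under LA, against 4297 and 1234 on the deposited scale. Whether replicate numbers pair the libraries cannot be settled with 4 libraries a group. The deviations of same-numbered LA and PF libraries correlated at -0.43 to -0.06 in fat (0 of 4 best with their own number) and -0.0035 to 0.15 in liver (2 of 4). Those of same-numbered fat and liver libraries correlated at -0.22 to 0.11 under LA (0 of 4) and -0.033 to 0.29 under PF (2 of 4). The replicate block changed no call of a member and ended those of Cfi, C9 and Cfb in liver (limma, adjusted p = 0.0532, 0.0879 and 0.106). One model of all 16 libraries, which shares its spread with fat, also ended these 3 (limma, adjusted p = 0.418, 0.621 and 0.685). The TPM scale (limma, adjusted p = 0.0664 and 0.0908) and no filter on low values (limma, adjusted p = 0.0614 and 0.0715) ended C9 and Cfb. The causes of these shifts were not tested. Read numbers are unknown, so no detection limit can be given for values listed at 0.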
